A study of Mus musculus with 91 samples.

Results

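Of the 14355 genes in the deposited count table, 2 are described here, ENSMUSG00000064945 and ENSMUSG00000088088. They are labelled as small structural RNAs, RNAs that work as parts of ribonucleoproteins and are not translated, and the second is named as Rmrp. They were chosen by the adjusted p-value of the difference between their daily rhythms in D1 and D2 neurons of the mouse nucleus accumbens, in these same libraries. The rhythms are therefore given as a description, with no test. The table pairs no identifier with a name or a gene class, so neither the label nor the name could be checked against it, and the first RNA is called by its identifier.

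The nucleus accumbens is a forebrain region for reward and motivation, and D1 and D2 neurons are its main projection neurons, named for their dopamine receptor. D1 libraries came from Drd1-Cre mice and D2 libraries from A2a-Cre mice, each crossed to RiboTag mice, in which Cre switches on a ribosomal protein with a hemagglutinin tag (HA-Rpl22). All mice were over 10 weeks old, and each library held RNA from ribosomes pulled down out of the pooled tissue of 2 mice. Because each cell type has its own Cre line, line and cell type cannot be told apart. D1 libraries numbered 22 from males and 23 from females, and D2 libraries 23 from each sex. The collection times were ZT (hours since the lights came on) 2, 6, 10, 14, 18 and 22. This gives 24 groups of 3 or 4 libraries, and every library title carries 1 of the letters A to E, whose meaning is not stated. Neuronal and glial marker genes could not be looked up without names, so the labelled cell types were not checked.

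Rmrp is the RNA component of RNase MRP, a ribonucleoprotein enzyme of the nucleolus that cleaves the precursor of ribosomal RNA. It is transcribed by RNA polymerase III and encodes no protein, and in humans its mutations cause cartilage-hair hypoplasia. RefSeq places the mouse gene on chromosome 4 at 43492785 to 43493059 (GRCm38.p6), a single stretch of 275 bases annotated as an RNase MRP RNA. No other RefSeq gene overlapped it, and the nearest one, Ccdc107, lay 280 bases away. The sources used here do not say whether counting used strand.

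Libraries held 6872165 to 24665262 counts. ENSMUSG00000064945 had between 42 and 1995 reads in a library and Rmrp between 122 and 1337. Exact 95% Poisson intervals, which cover counting error only, ran from 30.3 to 56.8 for the count of 42 and from 1908 to 2085 for the count of 1995. Counting error was thus small beside the range of both RNAs. 3 D1 libraries from males stood apart with 789, 722 and 205 genes at 0 (ZT10 B, ZT22 B and ZT18 D), against 0 to 3 in the other 88. They are marked by title number and letter as 3B, 6B and 5D. Library 3B held the highest level of both RNAs among all 91 libraries. Library 6B held the lowest Rmrp level of all 91, and among the 45 D1 libraries it ranked 45 for both RNAs, while 5D ranked 41 for ENSMUSG00000064945 and 44 for Rmrp. Levels below are CPM, a gene's share of the library's counts after TMM scaling, which corrects totals for differences in makeup. A lower level in such a bulk pull-down cannot tell fewer cells from less RNA per cell or less RNA recovered with the tagged ribosomes. RNA carried over from outside the tagged ribosomes was not measured.

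In D1 neurons ENSMUSG00000064945 was highest in the light phase. Its level had a lowest, median and highest value of 4.77, 17.1 and 47.8 CPM at ZT2 (n = 8), and of 6.04, 22.0 and 50.8 CPM at ZT6 (n = 8). At ZT10 these were 7.11, 26.1 and 242 CPM (n = 8). The dark phase was lower, with 7.72, 11.5 and 27.7 CPM at ZT14 (n = 7), 6.14, 10.9 and 19.6 CPM at ZT18 (n = 6), and 3.67, 8.41 and 24.3 CPM at ZT22 (n = 8). By median the order was ZT10, ZT6, ZT2, ZT14, ZT18 and ZT22, and the ranges of all 6 times overlapped. The level was above the D1 median of 13.6 CPM in 16 of 24 light-phase libraries and in 6 of 21 dark-phase ones.

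Single libraries set the height at ZT10. Males gave 25.4, 242, 8.25 and 7.11 CPM for letters A to D, and females 52.7, 26.9, 108 and 16.8 CPM. The 242 CPM came from 3B, and without it the ZT10 mean was 35.0 ± 35.6 CPM (SD, n = 7), against 60.9 ± 80.4 CPM with it (SD, n = 8). The library of second rank, 108 CPM in a ZT10 female of letter C, is not among the 3 that stand apart. At ZT22 males gave 24.3, 3.67, 6.86 and 3.97 CPM for letters A to D, where the lowest value is 6B. Females gave 15.0, 8.71, 8.11 and 10.1 CPM for letters A, B, C and E, so every ZT22 library but the A ones lay below 11 CPM.

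In D2 neurons the dark phase had the higher medians. ENSMUSG00000064945 had a lowest, median and highest value of 6.36, 8.29 and 26.7 CPM at ZT2 (n = 7), and of 4.72, 6.44 and 28.7 CPM at ZT6 (n = 7). At ZT10 these were 3.35, 11.8 and 24.0 CPM (n = 8). In the dark phase they were 4.22, 24.0 and 28.1 CPM at ZT14, 7.95, 26.2 and 67.9 CPM at ZT18, and 9.69, 21.1 and 43.3 CPM at ZT22 (n = 8 each). By median the order was ZT18, ZT14, ZT22, ZT10, ZT2 and ZT6, so ZT10 was the highest light-phase time in both cell types. All of these ranges overlapped. The level was above the D2 median of 13.7 CPM in 6 of 22 light-phase libraries and in 17 of 24 dark-phase ones.

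The sexes spread differently at ZT14 and ZT18. Males at ZT14 lay close together, with 28.1, 26.4, 25.5 and 26.9 CPM for letters A to D, whereas females gave 5.96, 4.22, 12.8 and 22.4 CPM. Every male library at ZT14 was above every female one. At ZT18 males gave 27.1, 21.0, 31.2 and 55.9 CPM and females 7.95, 8.34, 25.3 and 67.9 CPM, so that the sexes overlapped and letter D was highest in both. At ZT22 males gave 13.4, 9.69, 13.9 and 43.3 CPM, against 19.8, 22.4, 33.6 and 39.6 CPM in females, where only the male of letter D exceeded the females.

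Rmrp varied less over the day, and in D1 neurons its phases were less distinct. Its lowest, median and highest levels were 22.3, 39.6 and 56.0 CPM at ZT2, 32.4, 38.9 and 63.7 CPM at ZT6, and 27.0, 50.8 and 127 CPM at ZT10 (n = 8 each). At ZT14 they were 28.3, 41.6 and 62.5 CPM (n = 7), at ZT18 15.9, 41.6 and 55.6 CPM (n = 6), and at ZT22 14.4, 34.2 and 56.7 CPM (n = 8). Only ZT10 stood above the other times by its median, those of ZT14 and ZT18 were above those of ZT2 and ZT6, and ranges overlapped throughout. The level was above the D1 median of 41.6 CPM in 13 of 24 light-phase libraries and in 9 of 21 dark-phase ones. Without the 3 libraries the medians were 45.4 CPM at ZT10 (n = 7), 41.9 CPM at ZT18 (n = 5) and 38.9 CPM at ZT22 (n = 7), which leaves a flatter profile.

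In D2 neurons Rmrp differed more clearly between day and night. Its lowest, median and highest levels were 21.2, 26.2 and 54.7 CPM at ZT2 (n = 7) and 15.4, 25.2 and 61.0 CPM at ZT6 (n = 7). They were 20.5, 30.9 and 48.3 CPM at ZT10 and 19.8, 44.6 and 55.2 CPM at ZT14 (n = 8 each). At ZT18 they were 30.6, 52.7 and 95.3 CPM and at ZT22 29.1, 56.7 and 80.1 CPM (n = 8 each). The level was above the D2 median of 39.4 CPM in 1 of 7 libraries at ZT2 and in 1 of 7 at ZT6, and in 7 of 8 at ZT18 and in 7 of 8 at ZT22. Males at ZT6 gave 36.1, 16.9 and 15.4 CPM for letters A, C and D, where A was also far above the others for ENSMUSG00000064945, with 28.7 against 5.24 and 6.44 CPM.

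**Figure D1:**
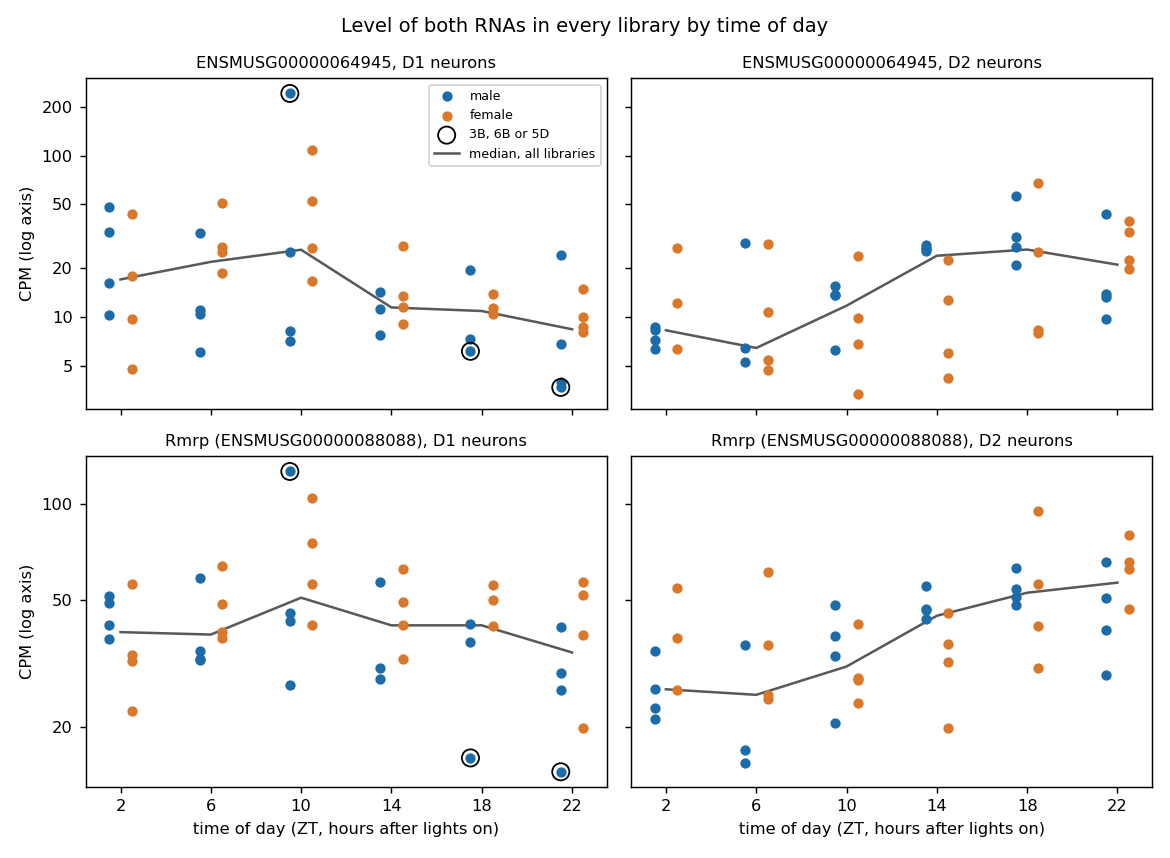
CPM on a log axis against time of day for both RNAs in D1 neurons (left) and D2 neurons (right); each point is a library, rings mark 3B, 6B and 5D, and the line joins the medians. D1 medians of ENSMUSG00000064945 are highest at ZT10 (26.1 CPM) and D2 medians at ZT18 (26.2 CPM), with overlapping ranges at all times.

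A cosine curve with a period of 24 h was fitted to the counts with edgeR, with a curve of its own for each cell type and sex, and sexes were then averaged. The amplitude is the log2 height of the peak over the mean. For ENSMUSG00000064945 it was 1.13 ± 0.22 (SE) in D1 neurons with a peak at ZT 8.2, and 0.71 ± 0.22 (SE) in D2 neurons with a peak at ZT 18.6. For Rmrp it was 0.35 ± 0.10 (SE) in D1 neurons with a peak at ZT 9.8, and 0.49 ± 0.10 (SE) in D2 neurons with a peak at ZT 19. The D1 minus D2 difference of the curves had an amplitude of 1.80 ± 0.31 (SE) for ENSMUSG00000064945 and 0.79 ± 0.15 (SE) for Rmrp. The fitted peaks of both RNAs thus lay in the light phase in D1 neurons and in the dark phase in D2 neurons.

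This difference is the value that chose both genes. edgeR's test of it gave adjusted p-values of 0.0128 for ENSMUSG00000064945 and 0.0198 for Rmrp, inside the threshold of 0.05, and it called 2 of 14355 genes (0.0139%). The gene just outside, ENSMUSG00000002881, had an adjusted p of 0.0603 and a difference of amplitude 0.24. Nothing is read from these values, since the rule used them.

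Both D1 rhythms rested in part on the 3 libraries that stand apart. Without 3B, 6B and 5D, the D1 amplitude of ENSMUSG00000064945 was 0.62 ± 0.20 (SE) with a peak at ZT 6.7, and that of Rmrp 0.17 ± 0.09 (SE) with a peak at ZT 10.3. The D2 values, 0.71 ± 0.19 (SE) and 0.49 ± 0.09 (SE), and their peaks were the same to the precision given. The difference between the cell types was 1.33 ± 0.27 (SE) and 0.62 ± 0.13 (SE), with an adjusted p of 0.122 for each. Leaving out 3B alone gave differences of 1.42 and 0.70 (adjusted p = 0.0402 for each), and leaving out 6B or 5D alone gave 1.77 and 0.76. The adjusted p lay above 0.05 for both genes without letter B (0.251 for each), letter C (0.508 and 0.413) or letter D (0.104 and 0.324). Without letter A it was 0.00242 and 0.0235. With the letter as a replicate block and without the 3 libraries it was 0.0146 for each. That block gave each letter the same shift in both cell types. It could not take out letter differences that ran opposite ways in D1 and D2 neurons. All of these edgeR values belong to the contrast that chose the genes. They describe how the choice depended on the libraries and are no support for the rhythms.

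The change lay in D1 males, the group that holds all 3 libraries. Their curve for ENSMUSG00000064945 had an amplitude of 1.17 ± 0.31 (SE) and a peak at ZT 8.1 with all libraries, and 0.51 ± 0.29 (SE) and ZT 2.6 without the 3. For Rmrp in D1 males the amplitude was 0.43 ± 0.15 (SE) with all libraries and 0.09 ± 0.14 (SE) without them. D1 females, who have none of the 3, had an amplitude of 1.09 ± 0.31 (SE) with a peak at ZT 8.3 for ENSMUSG00000064945. Their Rmrp amplitude was 0.33 ± 0.14 (SE) with a peak at ZT 11.4.

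**Figure D2:**
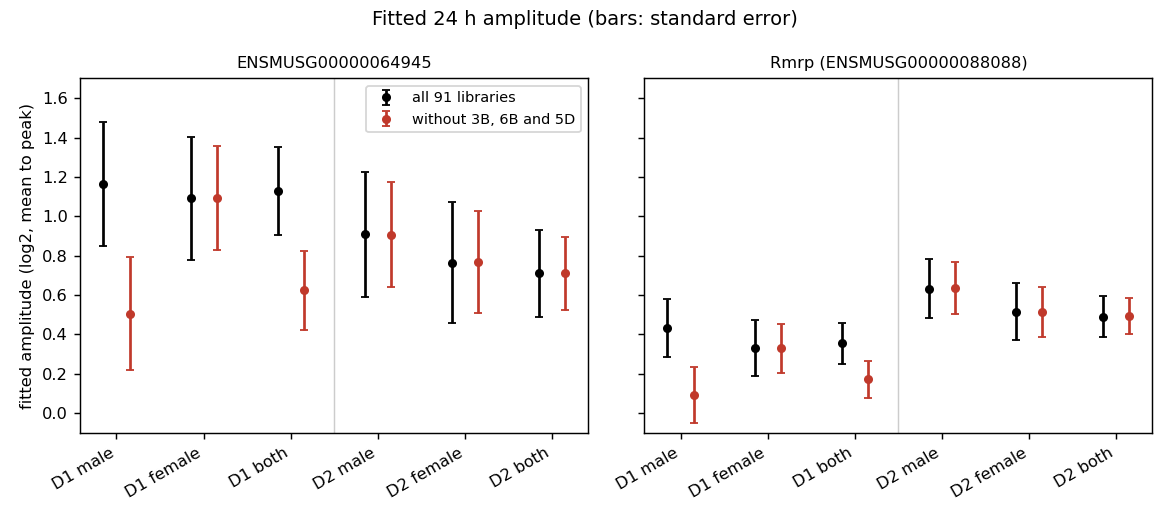
Fitted 24 h amplitude on the log2 scale with its standard error for males, females and both sexes in D1 and D2 neurons, with all 91 libraries (black) and without 3B, 6B and 5D (red). Without the 3 libraries the values of D1 males are 0.51 for ENSMUSG00000064945 and 0.09 for Rmrp, against 1.17 and 0.43 with them, and those of D2 neurons are 0.71 and 0.49 either way.

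The level of ENSMUSG00000064945 also differed by the letter in the title, with letters A and D in opposite order in the cell types. Its medians in D1 neurons were 25.3, 17.9, 10.7 and 9.10 CPM for letters A, B, C and D (n = 12, 9, 12 and 11). In D2 neurons they were 11.1, 7.78, 13.3 and 26.8 CPM (n = 12, 10, 12 and 12). Letter A was the highest of its group in 8 of 12 D1 groups that hold it, and letter D the lowest in 8 of 11. In D2 neurons letter D was the highest in 8 of 12 groups.

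Rmrp shared this pattern only in part. Its medians for letters A to D were 43.7, 33.7, 45.7 and 34.5 CPM in D1 neurons and 32.0, 32.7, 47.0 and 50.7 CPM in D2 neurons. In D1 neurons letter C had the highest median, letter A was the highest of its group in 6 of 12, letter B the lowest in 5 of 9 and letter D the lowest in 3 of 11. Letter D held the highest Rmrp level in 1 of 11 D1 groups and in 8 of 12 D2 groups. Depth moved with the letters as well, with median totals of 15724700, 16349600, 14474400 and 11390100 counts in D1 libraries and 19297700, 16094200, 11019600 and 11432600 in D2 libraries for A to D. Its part in the levels was not tested.

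Within each letter, a cosine curve fitted to log2(CPM + 1) gave D1 peaks at an earlier ZT than D2 peaks for both RNAs. For ENSMUSG00000064945 the D1 peaks lay at ZT 5.3, 8.4, 9.6 and 7.8 in letters A to D and the D2 peaks at ZT 17.8, 19.2, 18.0 and 18.3. The amplitude of the D1 minus D2 difference was 0.97, 2.24, 1.55 and 1.31, highest in letter B, which holds 3B and 6B. For Rmrp the D1 peaks lay at ZT 6.3, 9.1, 12.6 and 7.2 and the D2 peaks at ZT 18.5, 18.6, 18.0 and 19.9, with differences of amplitude 0.47, 1.32, 0.68 and 0.96. The D1 peak of Rmrp in letter C, at ZT 12.6, lay in the dark phase. These values come from 9 to 12 libraries per curve and describe the contrast that chose the genes, so they are no independent support for it.

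**Figure D3:**
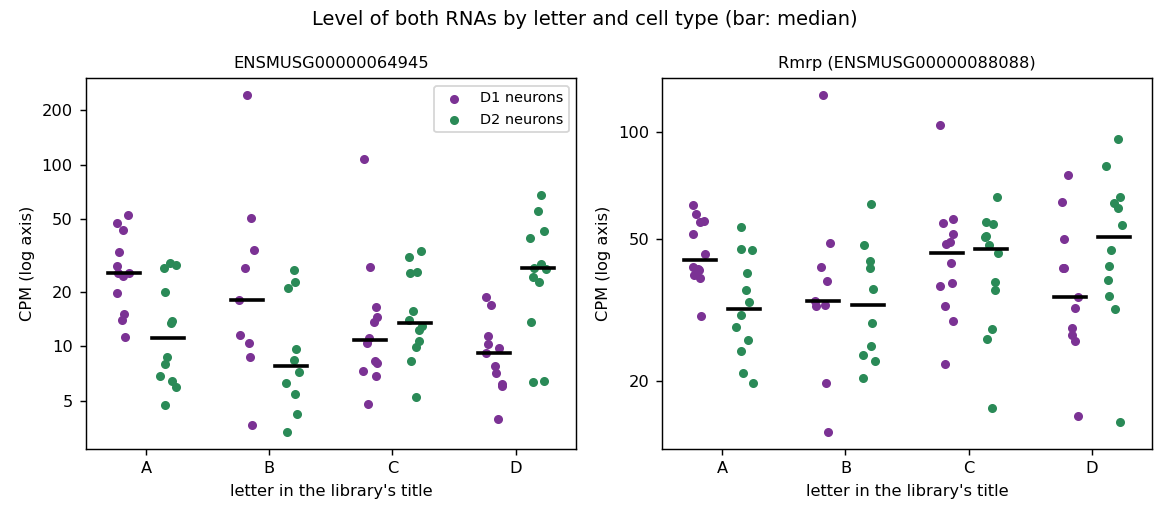
CPM on a log axis by title letter for D1 neurons (purple) and D2 neurons (green), each point a library and each bar a median. For ENSMUSG00000064945 the D1 median is 25.3 CPM in letter A and 9.10 CPM in letter D, and the D2 median 11.1 CPM in letter A and 26.8 CPM in letter D.

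ENSMUSG00000064945 was among the most variable genes between libraries of the same group. Its within-group SD was 0.97 on the log2(CPM + 1) scale, against a median of 0.30 over all 14355 genes, and 7 genes had a higher one. Among 2450 genes whose mean level lay within 0.5 on the log2 scale of its own, 2 had a higher SD. The within-group SD of Rmrp was 0.50, and 80 of 2322 genes of similar level exceeded it. These shares describe the libraries, and the 3 that stand apart are included.

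The deviations of both RNAs from their group means went together. Group means, which hold the rhythm that chose the genes, were taken out, but the deviations come from the same libraries as the choice. Library 3B, which raised the ZT10 level, also had the largest deviation of both RNAs (3.21 and 1.30 on the log2 scale). In D1 neurons Pearson's r was 0.70 and Spearman's rho 0.59 over 45 libraries (permutation p = 3e-05 and 0.0003, shuffled within groups, two-sided). In D2 neurons r was 0.83 and rho 0.80 over 46 libraries (permutation p = 1e-05 for each, the smallest that 100000 shuffles can give). Adjusted over the 2 cell types, these were 3e-05 and 0.0003 in D1 neurons and 2e-05 for each in D2 neurons. Shuffling within groups takes libraries as independent, but same-letter libraries deviated together over all genes in D2 neurons (median r = 0.743). The p-values do not allow for this. With the letter taken out as well, r was 0.82 in D1 neurons and 0.74 in D2 neurons. How many other genes reach such an r within groups was not counted.

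The relation kept its sign without the libraries farthest out. Without 3B, 6B and 5D the D1 values were r = 0.56 and rho = 0.51 (n = 42, permutation p = 0.00094 and 0.00255). Without the 2 libraries farthest from the median of ENSMUSG00000064945, r was 0.59 in D1 neurons (ZT10 male B and ZT22 male A left out; permutation p = 0.00034). In D2 neurons it was 0.78 (ZT18 female D and ZT6 female D left out; permutation p = 2e-05). For these 2 values the group means still included the libraries left out, so their influence was not fully removed. For the values without 3B, 6B and 5D the group means were taken anew.

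Within single letters, with shuffling over the whole letter, the relation was uneven. In D1 neurons r was 0.95, 0.93, 0.80 and 0.33 for letters A to D (permutation p adjusted over the 8 combinations of letter and cell type = 0.00024, 0.00551, 0.00365 and 0.359, that of letter B exact, two-sided). In D2 neurons r was 0.92, 0.25, 0.67 and 0.76 (adjusted permutation p = 0.001, 0.483, 0.0243 and 0.00613). Pearson's r passed 0.05 in 6 of the 8, and not in letter D of D1 neurons or letter B of D2 neurons. Spearman's rho passed in 4 of the 8, as letter B of D1 neurons (rho = 0.72) and letter C of D2 neurons (rho = 0.45) did not.

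**Figure D4:**
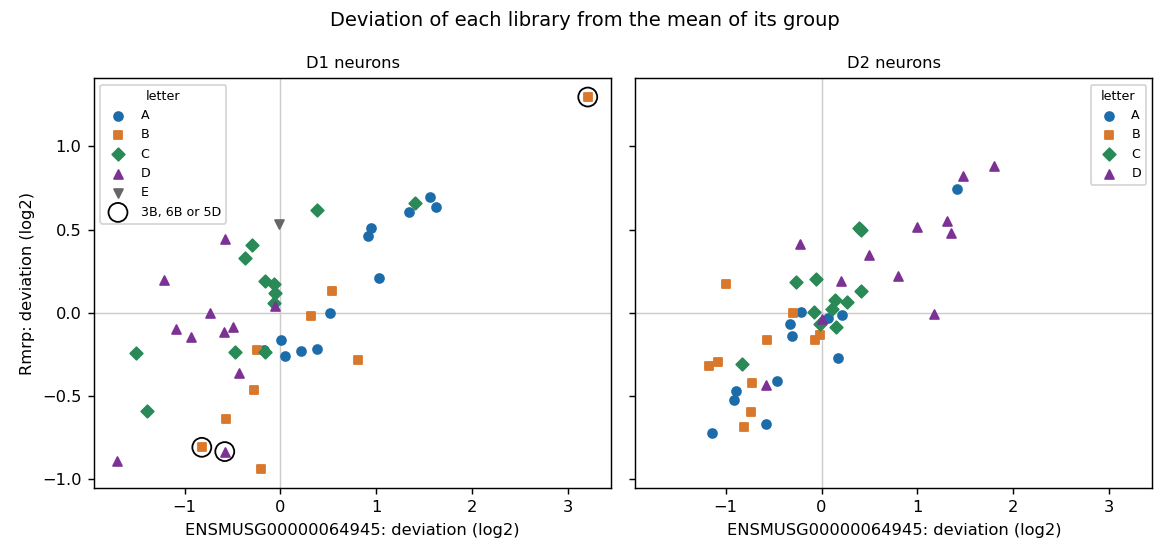
Deviation of each library from its group mean on the log2(CPM + 1) scale, ENSMUSG00000064945 against Rmrp, in D1 neurons (left) and D2 neurons (right), with title letters as symbols and rings on 3B, 6B and 5D. Points run from lower left to upper right in both panels (r = 0.70 and 0.83), with 3B at the upper right of the D1 panel.

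The genes whose level was most like theirs over the 91 libraries were found by Pearson's r of log2(CPM + 1), as a description across libraries that share letter and depth. For ENSMUSG00000064945 they were ENSMUSG00000096349 (r = 0.84) and ENSMUSG00000095734 (r = 0.84), and Rmrp ranked 5 of all genes (r = 0.80). For Rmrp, ENSMUSG00000064945 ranked 1, followed by ENSMUSG00000096349 (r = 0.76) and ENSMUSG00000096677 (r = 0.75). Without the 3 libraries ENSMUSG00000096677 came first for both, with r = 0.88 for ENSMUSG00000064945 and 0.79 for Rmrp. Rmrp then ranked 9 for ENSMUSG00000064945, and ENSMUSG00000064945 ranked 3 for Rmrp.

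Likeness was also ranked within each cell type, and no difference between them was tested. In the D1 libraries ENSMUSG00000064455 (r = 0.87) and ENSMUSG00000095734 (r = 0.85) were nearest to ENSMUSG00000064945, and ENSMUSG00000057551 (r = 0.77) and ENSMUSG00000042814 (r = 0.76) nearest to Rmrp, followed by ENSMUSG00000064945 at rank 3 (r = 0.75). In the D2 libraries ENSMUSG00000096349 (r = 0.89) and ENSMUSG00000095734 (r = 0.88) were nearest to ENSMUSG00000064945. For Rmrp the nearest there was ENSMUSG00000064945 itself (r = 0.86), then ENSMUSG00000094274 and ENSMUSG00000087968 (r = 0.82 for each). The table names none of these genes.

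Whether the mean level over the day differed between the cell types is a question the choice of genes did not use. ENSMUSG00000064945 had a lowest, median and highest level of 3.67, 13.6 and 242 CPM in D1 neurons (n = 45), against 3.35, 13.7 and 67.9 CPM in D2 neurons (n = 46). The fitted D1 minus D2 difference was 0.29 ± 0.22 (SE) on the log2 scale, with a 95% interval from -0.15 to 0.73 (edgeR, adjusted p = 0.365). Rmrp had 14.4, 41.6 and 127 CPM in D1 neurons, against 15.4, 39.4 and 95.3 CPM in D2 neurons. Its difference was 0.14 ± 0.10 (SE), with an interval from -0.07 to 0.34 (edgeR, adjusted p = 0.357). All edgeR fits here without the replicate block take libraries as independent. Their errors, intervals and p-values do not allow for same-letter libraries that deviated together. 0 of the 2 genes passed, where 19.3% of all 14355 genes did.

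Of the letters left out in turn, only letter D changed this call. Without it the difference was 0.90 for ENSMUSG00000064945 (edgeR, adjusted p = 0.00322) and 0.35 for Rmrp (adjusted p = 0.0289), both higher in D1 neurons. In that setting 1767 genes were called, against 2770 with all libraries. For ENSMUSG00000064945 the difference also moved to -0.03 and -0.11 without letters A and B in turn, and to 0.06 without the 3 libraries. Why the difference moved with the libraries left out was not tested.

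Mean levels were also compared between the sexes. In D1 neurons ENSMUSG00000064945 had a lowest, median and highest level of 3.67, 10.7 and 242 CPM in males (n = 22), against 4.77, 15.0 and 108 CPM in females (n = 23). The male minus female difference was 0.07 ± 0.34 (SE) on the log2 scale, with a 95% interval from -0.62 to 0.76 (edgeR, adjusted p = 0.942). Without the 3 libraries, all from males, it was -0.40 (edgeR, adjusted p = 0.706). Rmrp in D1 neurons had 14.4, 37.3 and 127 CPM in males, against 19.8, 48.4 and 104 CPM in females, a difference of -0.26 ± 0.16 (SE) with an interval from -0.57 to 0.06 (edgeR, adjusted p = 0.414). 0 of the 2 genes passed, where 0.0418% of all genes did.

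In D2 neurons ENSMUSG00000064945 had 5.24, 13.9 and 55.9 CPM in males, against 3.35, 12.2 and 67.9 CPM in females (n = 23 each). The difference was 0.04 ± 0.26 (SE), with an interval from -0.48 to 0.57 (edgeR, adjusted p = 0.967). Rmrp had 15.4, 40.3 and 65.8 CPM in males, against 19.8, 38.0 and 95.3 CPM in females, a difference of -0.19 ± 0.13 (SE) with an interval from -0.45 to 0.08 (edgeR, adjusted p = 0.926). 0 of the 2 passed, where 0.216% of all genes did.

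Last, the rhythms of males and females were compared within each cell type. In D2 neurons the fitted curve of Rmrp peaked at ZT 17.2 in males with an amplitude of 0.63 ± 0.15 (SE), against ZT 21.4 in females with 0.52 ± 0.14 (SE). ENSMUSG00000064945 peaked at ZT 16.7 in males with 0.91 ± 0.32 (SE), against ZT 21 in females with 0.76 ± 0.31 (SE). Both RNAs thus had the earlier fitted peak in males. The male minus female difference had an amplitude of 0.61 for Rmrp and 0.90 for ENSMUSG00000064945 (edgeR, unadjusted p = 0.00965 and 0.0787, adjusted p = 1.0 for each). Neither passed after adjustment, also not with the replicate block (edgeR, adjusted p = 0.147 and 0.179). Without the block 0% of all genes passed in edgeR, against 389 at an unadjusted p under 0.05, and DESeq2 called 2.

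In D1 neurons the difference between the sexes had an amplitude of 0.08 for ENSMUSG00000064945 (edgeR, adjusted p = 1.0) and 0.29 for Rmrp (adjusted p = 1.0). Of all genes 0% passed in edgeR, against 226 at an unadjusted p under 0.05, and DESeq2 called 0. Without the 3 libraries the amplitude for ENSMUSG00000064945 was 1.16 (edgeR, adjusted p = 1.0), with fitted peaks at ZT 2.6 in males and ZT 8.2 in females.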

How the data were processed

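RNA bound to tagged ribosomes was sequenced from 91 libraries. The deposited table holds raw counts per gene for 14355 genes, with Ensembl identifiers and no names. FastQC 0.11.7, HISAT2 and HTSeq 0.10.0 are named in the submitters' processing notes, with builds GRCm38 and GRCh38 whose roles are not stated. The name of the deposited counts labels them as filtered by logCPM, the log of CPM. The cut-off and the number of genes removed are unknown. Shares and ranks over all 14355 genes therefore describe the genes kept by that filter. All columns belonged to a sample.

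Counts were scaled by TMM and fitted across all genes with edgeR 4.0.16 (R 4.3.3), using a mean and a cosine and sine with a period of 24 h for each cell type and sex. Quasi-likelihood tests were adjusted by Benjamini-Hochberg over all 14355 genes, with a threshold of 0.05. Levels are CPM, and correlations use log2(CPM + 1). The tests were checked on simulated counts, drawn independently for each library with no effect of letter. That check does not cover libraries that deviate together. Alternatives were size factors of DESeq2's kind (RLE), total counts only, DESeq2 1.42.0, a filter on low counts, a replicate block on the title letter, each letter left out, and 3B, 6B and 5D left out together. Leaving those 3 out singly and the curves within letters were added after seeing the data. No pair of libraries of 1 group agreed within counting noise (lowest mean chi-square 4.24 over 129 pairs).

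Same-letter libraries deviated together in D2 neurons (median r = 0.743, lowest 0.217, over 243 pairs of libraries) and not throughout in D1 neurons (median r = 0.23, lowest -0.632, over 223 pairs). Both genes and the gene lists were chosen with earlier results of these data known. The named genes are both of these and, for each, the 2 genes of highest Pearson r. ENSMUSG00000002881 was named after its value was seen. 0 of the 14355 identifiers matched a name in the RefSeq table (GRCm38.p6), so lists of structural RNAs, of proteins that bind them and of cell type markers were not scored. Rmrp was looked up there by the name given with the choice.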

Additional observations from a re-analysis of the deposited data

Results flagged for a closer look

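A library was marked when its gap to the nearest other of its group was large beside the range of the group (Dixon's test at the 95% level). Chance would mark about 1 in 20 independent groups of normally distributed values, and 7 of 62 were marked. The groups here overlap, since single sexes and both sexes together were tested, and both RNAs go together. The rate is therefore only a rough guide. ENSMUSG00000064945 was at 242 CPM in the D1 male ZT10 library of letter B (3B), far above the others both among D1 males at ZT10 and among all D1 libraries at that time. It was also far above its group at 27.7 CPM in the D1 female ZT14 library of letter A, among D1 libraries of both sexes, and at 24.3 CPM in the D1 male ZT22 library of letter A. In D2 neurons the marked libraries were of letter D, with 26.7 CPM in a ZT2 female, among both sexes, and 43.3 CPM in a ZT22 male. For Rmrp the D1 male ZT6 library of letter A was marked at 58.8 CPM.

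The D1 minus D2 difference of the rhythms, with amplitudes of 1.80 for ENSMUSG00000064945 and 0.79 for Rmrp on the log2 scale, is listed because the effect of time differed between the cell types. Both genes were chosen for it, so it is not independent evidence.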

How the results depend on the processing

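Correlations between both RNAs kept their sign and stayed under 0.05 in 16 of 16 alternatives. Of 146 alternative values for the tested differences of both genes, 133 were counted as unchanged, 2 passed the threshold and 11 turned sign without passing it. Amplitudes of rhythm differences between the sexes have no sign, so only their call was compared. That of ENSMUSG00000064945 in D1 neurons counts as unchanged at 1.16 without the 3 libraries, against 0.08 with them. DESeq2 gave no adjusted p for the male minus female level of either gene in D1 neurons, and these were also counted as unchanged. Same-letter libraries deviated together in D2 neurons, and less strongly and not throughout in D1 neurons (median r = 0.743 and 0.23). In comparisons between cell types the replicate block gave each letter the same shift in both. It changed no call of either gene. With it, called genes numbered 5471 for mean level between cell types (2770 without it), 1042 and 1357 for sex in D1 and D2 neurons (6 and 31 without it), 3 for the rhythm by sex in D2 neurons (0) and 76 for the rhythm between cell types (2). With the replicate block and without 3B, 6B and 5D these were 6057, 33, 1357, 3 and 30. DESeq2 called 56 genes for sex in D1 neurons, 2 for the rhythm by sex in D2 neurons and 32 for the rhythm between cell types. The last count was 5 with total counts only, 1 without the 3 libraries and 22 without 3B alone. Leaving out a letter gave 1767 to 6912 genes for mean level, 2 to 294 and 7 to 28 for sex in D1 and D2 neurons, 0 to 1 for the rhythm by sex in D2 neurons and 0 to 7 for the rhythm between cell types.

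The D1 amplitude of ENSMUSG00000064945 was 0.62 without the 3 libraries, 0.70 with the replicate block as well, 0.71 without 3B alone and 0.65 to 1.47 without a letter. Its D2 amplitude was 0.57 to 0.94 without a letter. The difference was 1.33, 1.45, 1.42 and 1.37 to 2.33 in the same order as for D1. For Rmrp the D1 amplitude was 0.17, 0.20, 0.24 and 0.22 to 0.45, and the difference 0.62 without the 3 libraries.

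The male minus female difference of ENSMUSG00000064945 in D1 neurons was -0.0058 with total counts only, -0.086 with the replicate block, -0.40 without the 3 libraries, -0.49 with both, -0.49 without 3B alone and -0.49 to 0.33 without a letter. In D2 neurons it was -0.40 to 0.56 without a letter. D1 minus D2 was -0.11 to 0.90 for ENSMUSG00000064945 and 0.024 to 0.35 for Rmrp, with adjusted p between 0.00322 and 0.971 and between 0.0289 and 0.884. The cause of these changes was not tested. Counting error at 42 reads is the limit that depth sets.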
